A study of Rattus norvegicus with 29 samples.

Results

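Open chromatin regions (OCRs) are stretches of DNA that the Tn5 transposase of an ATAC-seq assay can reach, and in brain tissue they mark promoters, enhancers and other regulatory DNA. The OCRs described here are those that lie close together. Each of the 20 rat autosomes was divided into fixed bins of 100 kb, every OCR was placed by its midpoint, and an OCR was a member when its bin held 12 or more midpoints. This gave 23153 members out of 98237 OCRs (23.6%), in 1570 dense bins among the 19551 autosomal bins with an OCR (8.03%). The rule used position alone, and widths, levels and differences between samples did not enter it directly. The positions come from peaks called in these same libraries and then merged, so density may not be independent of width and level.

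The libraries came from adult male Sprague-Dawley rats that received 4 intraperitoneal injections, 1 every 2 h, of either 10 mg/kg methamphetamine (METH) or 1 mL/kg saline. Tissue was taken a day after the last injection. The regions were the nucleus accumbens (NAc), the subventricular zone (SVZ), and, from the hippocampus, Ammon's horn (CA) and the dentate gyrus (DG). There were 29 libraries. SVZ was represented by 3 saline and 2 METH libraries and the other regions by 4 of each. Names inside the peak files tied the libraries to 8 animals, so libraries of different regions often share an animal, whereas saline and METH libraries never do.

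Regulatory DNA is not spread evenly along chromosomes. Gene-rich stretches carry many promoters and enhancers within a short distance, and promoters are generally accessible in more cell types than distal enhancers are. The NAc is a striatal region made up mainly of GABAergic projection neurons, the DG and CA are the hippocampal fields built around granule and pyramidal neurons, and the SVZ lines the lateral ventricle next to the striatum and holds neural stem cells and ependyma. In bulk tissue of this kind, fewer cells of one type and less accessibility per cell cannot be told apart.

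The libraries held 7550223 to 19439840 counts within OCRs. Some stood apart from their group at the members. In DG METH replicates 1 and 4 the median member reached 7.99 and 7.76 CPM per kb (counts scaled to a common library size, divided by OCR width), the lowest of all 29 libraries. The low level was not confined to members. The median of the other autosomal OCRs was 4.59 and 4.68 CPM per kb there, against 6.15 and 7.27 in DG METH replicates 2 and 3. The top decile of OCRs held 62.4% of counts in DG METH replicate 1, the highest share of any library. NAc METH replicate 3 and SVZ saline replicate 3 went against their region labels at NAc-specific members, as given with those results.

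The dense bins held a median of 14 and at most 33 OCRs, against a median of 3 in the other autosomal bins. The OCRs covered a median of 9.85% of a dense bin and at most 20.6%, against 2.53% of the other bins. Within a bin, the gap from a member's end to the next member's start had a median of 4022 bp (quartiles 1450 and 7640.5 bp). Between successive OCRs in the other bins this gap had a median of 8808 bp. A total of 107 bins held 20 or more OCRs, 2364 in all. The rule cut through a continuous range, since 401 bins held exactly 12 OCRs and 440 held 11.

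Dense bins were unevenly placed. Members made up 37.7% of the OCRs of chromosome 19 (1171 of 3109), 34.7% on chromosome 12, 33.5% on chromosome 20, 32.4% on chromosome 10 and 30.2% on chromosome 7. The lowest shares were 16.2% on chromosome 2, 16.3% on chromosome 15 and 17.4% on chromosome 4. Dense bins also adjoined each other. Of the 1570 bins, 808 (51.5%) had a dense bin next to them, and the 1570 formed 1077 runs, of which 95 were 3 bins or longer. The longest run was 12 bins on chr7:10900001-12100000 (rn6) with 194 OCRs. All coordinates are those of the files, in the rat build rn6. A gene annotation of that build was not used here, so bins are given by position without gene names.

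Members were narrower than OCRs of the other autosomal bins but held more counts per base. Their median width was 614 bp (quartiles 452 and 849 bp) against 674 bp (527 and 892 bp). The difference lay at the narrow end: 17.3% of members were under 400 bp, against 7.67% of the other OCRs, while 15.2% and 17.2% were over 1000 bp. At the wide end, 0.510% of members and 0.401% of the others reached 2000 bp. From bins of 1 to 3 OCRs through 4 to 7, 8 to 11 and 12 or more, the median width was 679, 685, 658 and 614 bp. The consensus regions are a single set merged over the libraries, so these widths have no replicate error. Peaks that merge count as 1 wider OCR, so width is linked to the number of OCRs in a bin.

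Over the same 4 classes of bin the median level was 5.36, 6.40, 7.48 and 9.18 CPM per kb. The members' quartiles were 6.41 and 14.6 CPM per kb, and the median over all other autosomal OCRs was 6.48. This order held in each library. The median member was the higher in 29 of 29 libraries, at 7.76 to 10.1 CPM per kb against 4.59 to 7.40, and the ratio of the medians ran from 1.22 to 1.74. At the edge of the rule there was no step: bins of 12 OCRs had a median width of 637 bp and a median level of 7.95 CPM per kb, and bins of 11 had 638 bp and 7.91 CPM per kb.

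**Figure D1:**
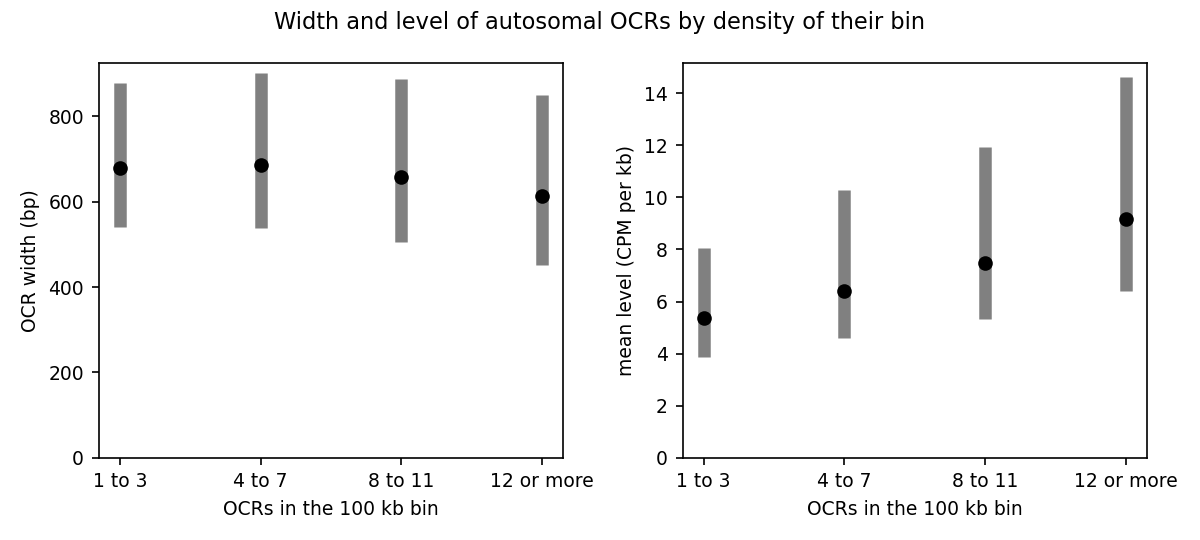
Width in bp (left) and mean level over 29 libraries in CPM per kb (right) of autosomal OCRs, by the number of OCRs in their 100 kb bin; points are medians and bars run from the lower to the upper quartile. The median width fell from 679 to 614 bp and the median level rose from 5.36 to 9.18 CPM per kb from the sparsest to the densest class, with overlapping quartiles.

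The higher level per base was not matched by a larger share of OCRs with a peak or by a higher fold enrichment of the peaks. In any 1 library, 42.1 to 77.8% of the members overlapped a peak called in that library, and 44.6 to 80.5% of the other OCRs did. The members' share was the lower in 24 of 29 libraries. The median fold enrichment that the peak caller gave to peaks in members was 4.45 to 6.50, against 5.36 to 8.30 for peaks in the other OCRs, and it was the lower in 29 of 29 libraries. Both sets had a peak in a median of 17 libraries.

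The members fell into unlike kinds by how widely they were called. A peak in all 29 libraries was found for 4916 members (21.2%) and for 20.9% of the other OCRs. At the opposite end, 1600 members (6.91%) had a peak in 3 or fewer libraries, against 2.14% of the others, and 3 members had none. Counted from the peaks of a single library, 59 to 2483 bins (median 381) held 12 or more peaks.

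Within a dense bin the counts were concentrated in a few OCRs. The highest OCR held a median of 25.8% of the bin's summed CPM (quartiles 19.3 and 34.6%), the top 3 together held 53.7%, and the highest stood 6.56-fold above the bin's median OCR. In 99 bins (6.31%) a single OCR held over 50%. The same OCR was highest in all 29 libraries in 575 bins (36.6%) and in a median of 27 libraries over all 1570.

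The highest OCR of each bin differed from its neighbours in width as well. The 1570 highest OCRs had a median width of 1112.5 bp and a median level of 37.5 CPM, and 85.7% had a peak in all 29 libraries. The remaining members had a median width of 592 bp and a median of 4.77 CPM, and 16.5% had a peak in all 29. A dense bin held a median of 3 OCRs that were called in every library, and 126 dense bins held none.

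Single members at the extremes show how far levels spread. The widest member, chr7:126552321-126555535 (3215 bp), ranged from 49.6 CPM in SVZ METH replicate 1 to 132 CPM in DG METH replicate 1. Its groups overlapped: the 4 NAc saline libraries were at 89.9, 87.4, 60.2 and 73.0 CPM and the 4 NAc METH libraries at 89.7, 93.0, 81.6 and 54.5 CPM. The member with the most counts per base was chr4:77447556-77448678 (1123 bp), with a mean of 1014 CPM per kb. It varied by library more than by group, from 729 CPM in NAc saline replicate 4 to 1707 CPM in NAc saline replicate 2.

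The share of a library's OCR counts that fell in members was nearly constant. It was 24.8 to 27.2% over the 29 libraries. In saline libraries it was 26.7% ± 0.598 (SD, n = 3) in SVZ, 26.3% ± 0.624 (n = 4) in CA, and 25.6% in both NAc (± 0.346, n = 4) and DG (± 0.655, n = 4). None of the 6 pairs of regions differed beyond the spread between libraries: the two-sided exact permutation p was 0.114 to 0.914, or 0.286 to 0.914 after Benjamini-Hochberg adjustment over the 6. With 4 against 3 libraries the smallest p this test allows is 0.0571.

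After METH the same share was 26.1% ± 0.556 (n = 2) in SVZ, 25.6% ± 0.177 (n = 4) in CA, 25.4% ± 0.470 (n = 4) in NAc and 25.8% ± 1.07 (n = 4) in DG. METH and saline libraries overlapped in every region, with two-sided exact permutation p of 0.4, 0.0857, 0.371 and 0.743 in that order, and adjusted p of 0.533, 0.343, 0.533 and 0.743. In SVZ 0.2 is the smallest p possible. CA METH libraries were at 25.5, 25.7, 25.8 and 25.4% and CA saline libraries at 26.6, 27.0, 26.1 and 25.6%. The peak names also carry 1 of 2 spellings of a tag, which differ in letter case. These were taken here as 2 batches, though no sample label calls them so. Within these batches the METH minus saline difference was -0.620 and 0.0355 percentage points in NAc, -1.22 and -0.255 in CA, and 0.572 and -0.199 in DG. In SVZ, 1 batch had no METH library and the other gave -0.871. The sign thus differed between batches in NAc and DG.

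**Figure D2:**
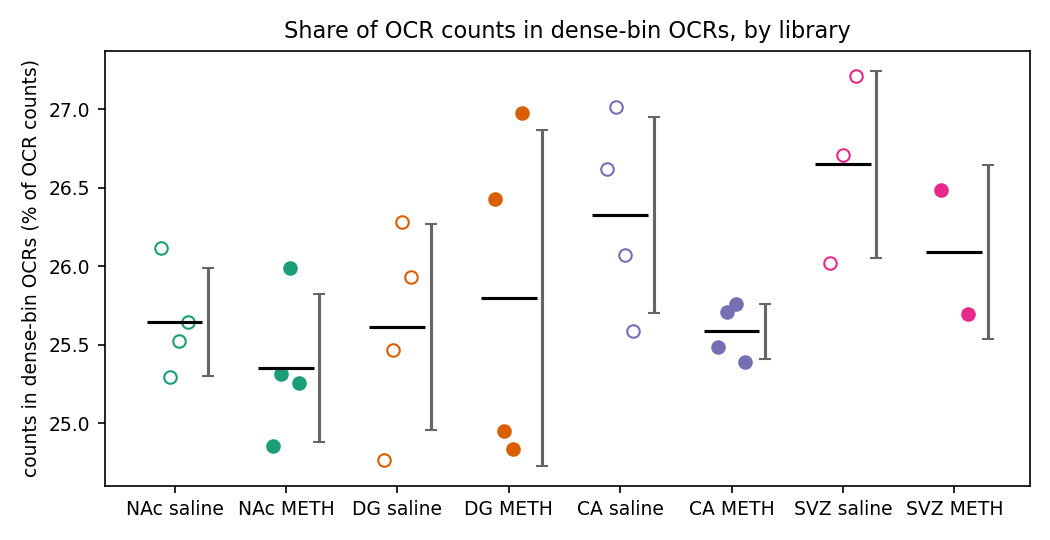
Percent of each library's OCR counts that lay in dense-bin OCRs, by brain region and treatment; open points are saline and filled points METH libraries, horizontal lines are group means and error bars are SD. The 29 libraries sit between 24.8 and 27.2% on an axis that does not start at 0, and saline and METH overlap in each region.

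Region-specific accessibility in saline rats was tested for every OCR, each region against the mean of the other 3, with edgeR's quasi-likelihood test. A region-specific OCR was one over 2-fold higher there at an adjusted p (FDR) under 0.01. Of the 23153 members, 547 (2.36%) were NAc-specific, against 4.66% of all OCRs tested. There were 24 SVZ-specific members (0.104%, against 0.399% of all), 5 CA-specific members (0.0216%, against 0.0814%) and 2 DG-specific members (0.00864%, against 0.155%). In each region the members' share lay below that of all OCRs, and this difference between the sets was not itself tested.

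At least 2-fold lower levels at the same FDR were found for 51 members in CA (0.220%, against 0.708% of all OCRs), 40 in NAc (0.173%, against 0.263%), 19 in DG (0.0821%, against 0.188%) and 0 in SVZ (against 0.00611%). DG and CA thus had more members called lower than higher.

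The spread of region differences narrowed as bins became denser. Over bins of 1 to 3, 4 to 7, 8 to 11 and 12 or more OCRs, the NAc-specific share was 8.71, 5.05, 3.50 and 2.36%, and the SD of the fitted NAc log2 fold change was 1.05, 0.80, 0.66 and 0.56. Members are more abundant, so the comparison was repeated within quartiles of the mean level of autosomal OCRs. From the lowest quartile to the highest, 4.44, 3.004, 2.49 and 0.624% of members were NAc-specific, against 10.3, 5.59, 3.96 and 0.693% of the OCRs in other bins. The gap was widest among OCRs of low level and nearly closed in the highest quartile. The quartiles are of CPM, which counts a wide OCR higher than a narrow one.

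**Figure D3:**
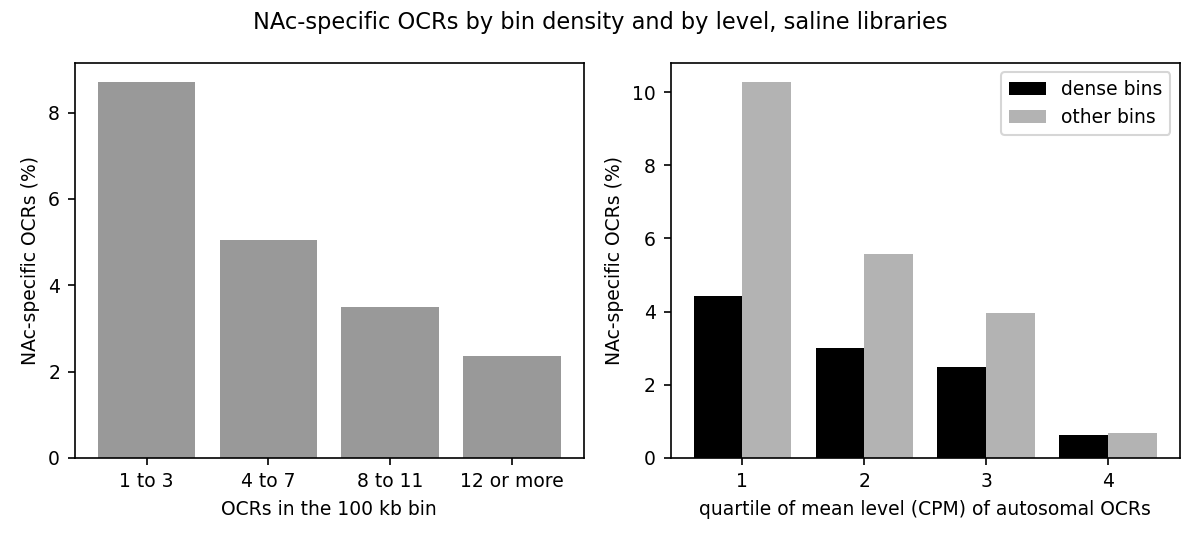
Percent of OCRs that were NAc-specific in saline libraries, by the number of OCRs in the bin (left) and by quartile of mean CPM for dense and other bins (right); bars start at 0 and have no replicate error, since each is a count over 1 fit. The share falls from 8.71 to 2.36% with density, and from 4.44 to 0.624% over the quartiles in dense bins.

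NAc-specific members had a median log2 fold change of 1.66. Their median level was 7.55 CPM in NAc, 5.74 CPM in SVZ, 1.59 CPM in CA and 1.55 CPM in DG saline libraries, and 89.4, 54.0, 11.01 and 7.27% of them on average had a peak in a library of those regions. The SVZ thus lay nearer to the NAc than to the hippocampal regions at these OCRs. They lay in 417 dense bins, with 1 in 314 bins, 2 in 82 bins and 3 to 5 in 21 bins. A total of 1146 dense bins had no OCR specific to any of the 4 regions.

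Few of them were the leading OCR of their bin. Only 4 of the 1570 highest OCRs (0.255%) were NAc-specific, against 543 of the other 21583 members (2.52%). The SD of the NAc log2 fold change was 0.29 over the highest OCRs and 0.58 over the rest. The highest OCRs thus varied less between regions, and the NAc-specific calls sat among the narrower, lower ones. Level was not matched in this contrast. Over all members, the SD was 0.83 in the lowest quartile of level and 0.32 in the highest.

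The median CPM over the 547 NAc-specific members was 6.91, 5.60, 8.52 and 9.48 in the 4 NAc saline libraries that chose them. The METH libraries had no part in the choice, and in NAc they were at 5.64, 6.92, 2.03 and 8.78 CPM for replicates 1 to 4. DG libraries were at 0.946 to 1.85 CPM and CA libraries at 1.18 to 1.82 CPM. SVZ saline libraries were at 3.90, 4.17 and 8.74 CPM and SVZ METH libraries at 3.56 and 5.15 CPM. NAc METH replicate 3 was thus the only NAc library below every SVZ library, and SVZ saline replicate 3 reached the NAc range. Neither tissue carried over between these neighbouring dissections nor an exchange of libraries was tested.

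The direction of the NAc difference recurred in the METH libraries. Refitted on the 14 METH libraries alone, 547 of 547 members were higher in NAc, with a median log2 fold change of 1.59, and 177 of them (32.4%) were called again, where the fit called 2.18% of all OCRs. Of all 4576 NAc-specific OCRs, 35.1% were called again. The 5 CA-specific members were all called again (1.19% of all OCRs). Of the 24 SVZ-specific members, all were higher in SVZ and 1 was called (1.05% of all), and the 2 DG-specific members were higher in DG with 0 called (0 of all OCRs). Over all members the METH fit called 262 in NAc (1.13%), 209 in CA (0.903%), 411 in SVZ (1.78%) and 0 in DG. In SVZ the members' share exceeded that of all OCRs, unlike in the saline fit. The SVZ METH group had 2 libraries, and its difference from the saline fit was not tested.

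These counts moved with the animals and with single libraries. With the animal as a block, since regions share animals, 935 members (4.04%, against 6.7% of all) were NAc-specific, 22 (0.0950%, against 0.196%) CA-specific, 9 (0.0389%, against 0.227%) DG-specific and 2 (0.00864%, against 0.0163%) SVZ-specific. Leaving out NAc saline replicate 4 lowered the NAc count to 153 (0.661%, against 1.72% of all). Leaving out SVZ saline replicate 3 lowered the SVZ count to 0, where the fit called 0% of all OCRs. Without CA saline replicate 4 the DG count rose to 103 (0.445%, against 1.29% of all), and without CA saline replicate 2 the CA count rose to 110 (0.475%, against 0.963% of all).

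The NAc-specific member with the largest log2 fold change was chr19:21659444-21660096 (653 bp). NAc saline libraries were at 10.7, 11.001, 26.6 and 21.4 CPM, DG saline libraries at 1.048, 0.365, 0.515 and 0.586 CPM, CA saline libraries at 0.831, 1.58, 1.09 and 0.459 CPM, and SVZ saline libraries at 6.12, 9.56 and 19.6 CPM. All NAc and SVZ libraries lay above all hippocampal libraries, while NAc and SVZ overlapped. The log2 fold change was 3.17 (SE 0.33; edgeR adjusted p = 4.15e-05). The NAc METH libraries, which were not used for it, were at 13.4, 13.8, 4.52 and 18.2 CPM, and the DG and CA METH libraries were all under 1 CPM.

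The SVZ-specific member with the largest change, chr16:2912996-2913568 (573 bp), was not highest in SVZ. SVZ saline libraries were at 6.54, 4.87 and 17.4 CPM and NAc saline libraries at 10.2, 8.15, 17.0 and 15.6 CPM, against 0 to 1.12 CPM in the saline DG and CA libraries. Its log2 fold change against the mean log level of the other 3 regions was 2.60 (SE 0.42; edgeR adjusted p = 0.00603), and the values below it were those of the hippocampus. With the animal as a block the edgeR adjusted p was 0.0224, above the 0.01 limit. SVZ saline replicate 3 gave the highest value.

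The DG-specific and CA-specific members chosen in the same way were less stable. At chr1:190695861-190696537 (677 bp) DG saline libraries were at 8.01, 11.2, 5.87 and 5.05 CPM and CA saline libraries at 3.74, 1.25, 5.59 and 7.62 CPM, which overlap, while NAc and SVZ saline libraries were at 0.509 to 1.70 CPM. The DG log2 fold change was 2.14 (SE 0.36; edgeR adjusted p = 0.00895). In DG METH libraries this OCR was at 0.947, 3.27, 9.26 and 1.72 CPM, the 2 lowest being replicates 1 and 4. At chr3:150076058-150076405 (348 bp) CA saline libraries were at 5.75, 2.69, 7.77 and 9.73 CPM and DG saline libraries at 5.53, 3.56, 4.43 and 6.01 CPM, again overlapping. Its CA log2 fold change was 1.77 (SE 0.34; edgeR adjusted p = 0.00874). Leaving out 1 library at a time ended each of these 2 calls in 12 of 15 cases.

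Summed over whole dense bins, region differences were small. By the same rule on bin sums, 0 of 1570 dense bins were specific to any region in either direction with edgeR. Over all 20134 bins the called share was 3.11% for NAc higher, 0.129% for NAc lower, 0.104% for SVZ higher, 0.243% for CA lower, 0.00497% for DG in either direction taken singly and 0 for CA higher and SVZ lower. Without the fold requirement, 3 dense bins were higher and 2 lower in NAc at an FDR under 0.01 (3.35% and 0.184% of all bins), and 0 in the other regions. At an unadjusted p under 0.05 there were 154 dense bins in CA (9.81%, against 18.6% of all bins), 131 in NAc (8.34%, against 20.2%), 101 in SVZ (6.43%, against 12.7%) and 71 in DG (4.52%, against 15.8%). DESeq2 called 1 dense bin in NAc and 1 in CA (0.0637%, against 4.05% and 0.909% of all bins), and the fit with the animal as a block called 2 in NAc (0.127%, against 4.26%).

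The bin sums were also measured more precisely. The median SE of the NAc log2 fold change was 0.14 in dense bins and 0.22 over all bins, and the SD of the fold changes was 0.19 and 0.68. These SDs are not like for like either, since dense bins sum more OCRs. The 5 to 95% range over dense bins was -0.31 to 0.29 in NAc. The extremes were -1.03 and 1.07. In the METH libraries 38 dense bins (2.42%, against 1.11% of all bins) were SVZ-specific, on 2 SVZ libraries.

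The dense bin with the smallest p for a higher level in NAc was chr10:97500001-97600000, with 19 OCRs. Its summed CPM was 192, 140, 182 and 205 in NAc saline libraries, 70.1 to 88.3 in DG saline libraries, 80.6 to 91.4 in CA saline libraries, and 134, 136 and 246 in SVZ saline libraries. NAc and SVZ lay above the hippocampal regions without overlap, and SVZ saline replicate 3 was the highest library of all. The NAc log2 fold change was 0.77 (SE 0.14; edgeR adjusted p = 0.00245). Of its members 17 of 19 were positive, 5 were NAc-specific and 3 SVZ-specific. NAc METH libraries were at 161, 162, 103 and 195 CPM, the lowest again replicate 3.

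In SVZ the corresponding bin was chr8:41100001-41200000, with 13 OCRs. SVZ saline libraries were at 112, 76.6 and 90.4 CPM, NAc saline libraries at 59.7, 62.3, 36.7 and 62.5 CPM, CA saline libraries at 30.4 to 48.5 CPM and DG saline libraries at 51.2, 39.7, 77.0 and 33.5 CPM. The groups touched through DG saline replicate 3, which exceeded SVZ saline replicate 2. The log2 fold change was 0.96 (SE 0.21; edgeR adjusted p = 0.0263). All 13 members were positive, with log2 fold changes of 0.57 to 1.34, and none was called SVZ-specific on its own. SVZ METH libraries were at 127 and 131 CPM, above all NAc, DG and CA libraries, and in the fit of METH libraries alone the bin was SVZ-specific (log2 fold change 1.47; edgeR adjusted p = 0.000373). No OCR of this bin (0) had a peak in all 29 libraries. The share of members with a peak averaged 46.9% in SVZ saline and 49.2% in SVZ METH libraries, against 55.7 to 69.9% in the other groups. The part of library quality in these levels was not tested.

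The DG and CA bins were shared within the hippocampus. At chr18:65300001-65400000 (18 OCRs) DG saline libraries were at 103, 140, 117 and 128 CPM and CA saline libraries at 130, 138, 118 and 105 CPM, against 64.7 to 90.7 CPM in NAc and SVZ saline libraries. The DG log2 fold change was 0.43 (SE 0.11; edgeR adjusted p = 0.0505). At chr1:174400001-174500000 (12 OCRs) CA saline libraries were at 106, 109, 91.8 and 72.6 CPM and DG saline libraries at 68.3, 92.6, 90.9 and 83.6 CPM, against 49.0 to 65.2 CPM in NAc and SVZ saline libraries. The CA log2 fold change was 0.56 (SE 0.12; edgeR adjusted p = 0.0201). DG and CA overlapped in both bins, and both stood above NAc and SVZ.

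**Figure D4:**
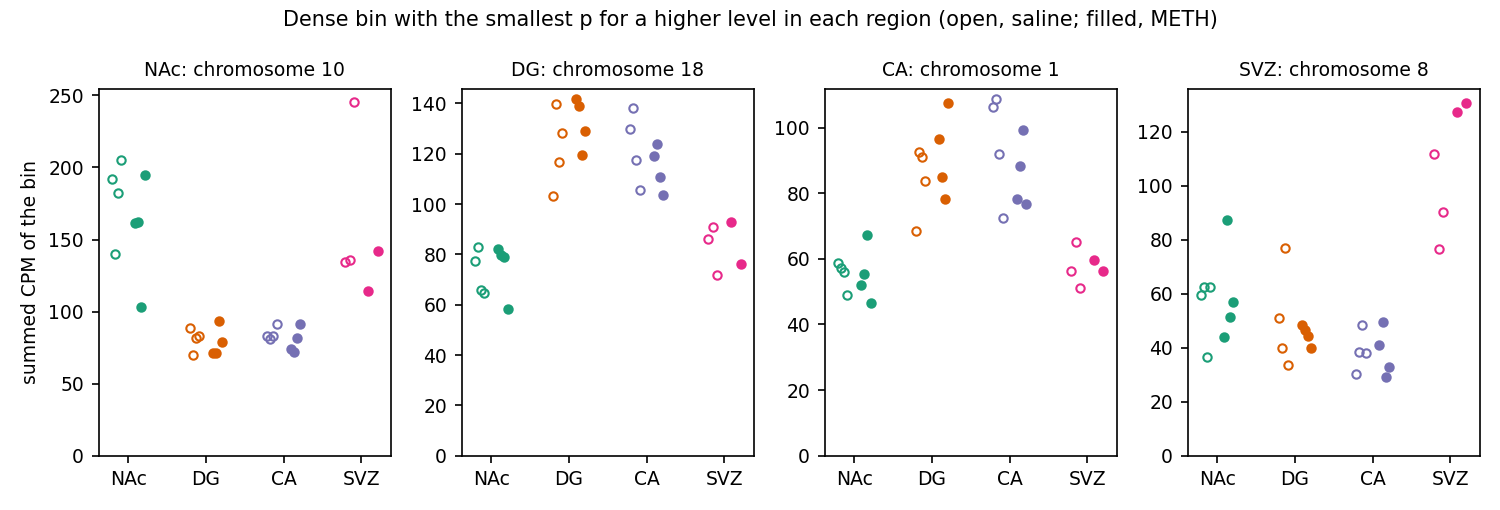
Summed CPM of the dense bin with the smallest p for a higher level in NAc, DG, CA and SVZ (left to right), by brain region; each point is 1 library, open for saline and filled for METH, and the axes start at 0 with a scale of their own. The NAc bin runs from 70.1 CPM in a DG saline library to 246 CPM in SVZ saline replicate 3, and the DG and CA bins are high in both hippocampal regions.

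The 3 densest bins were not region-specific in this test. The densest, chr19:26400001-26500000, held 33 OCRs of 228 to 1532 bp, which covered 18.9% of it. SVZ saline libraries were at 287, 261 and 180 summed CPM and SVZ METH libraries at 288 and 291 CPM, while the other 24 libraries were at 98.4 to 235 CPM. SVZ saline replicate 3 and DG saline replicate 3 broke the separation. The next, chr19:25800001-25900000, with 29 OCRs, was at 200.5 to 453 CPM, and chr3:80800001-80900000, with 27 OCRs, was at 200 to 315 CPM. In both of these the regions overlapped.

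OCRs of the same dense bin varied together between libraries. After the mean of each of the 8 groups was removed, the correlation over 29 libraries had a median r of 0.23 for the 165667 pairs of members in the same bin, and 27.4% of pairs had an r over 0.5. For the 267853461 pairs of members in different bins the median was 0.0095. These are descriptions: the pairs share OCRs, libraries and depth. With the first component of the remaining variation removed, which held 40.9% of it, the medians were 0.12 and 0.023.

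The correlation fell with distance and did not drop at the bin edge. From under 5 kb through 5 to 10, 10 to 25, 25 to 50 and 50 to 100 kb, the median r in the same bin was 0.38, 0.30, 0.25, 0.20 and 0.15. Pairs of members at those distances in neighbouring dense bins were at 0.41, 0.30, 0.25, 0.20 and 0.14, and pairs in the same sparser bin at 0.36, 0.27, 0.22, 0.18 and 0.15. At 100 to 500 kb the median was 0.070. At each distance under 50 kb, pairs in dense bins lay slightly above pairs in sparser bins.

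**Figure D5:**
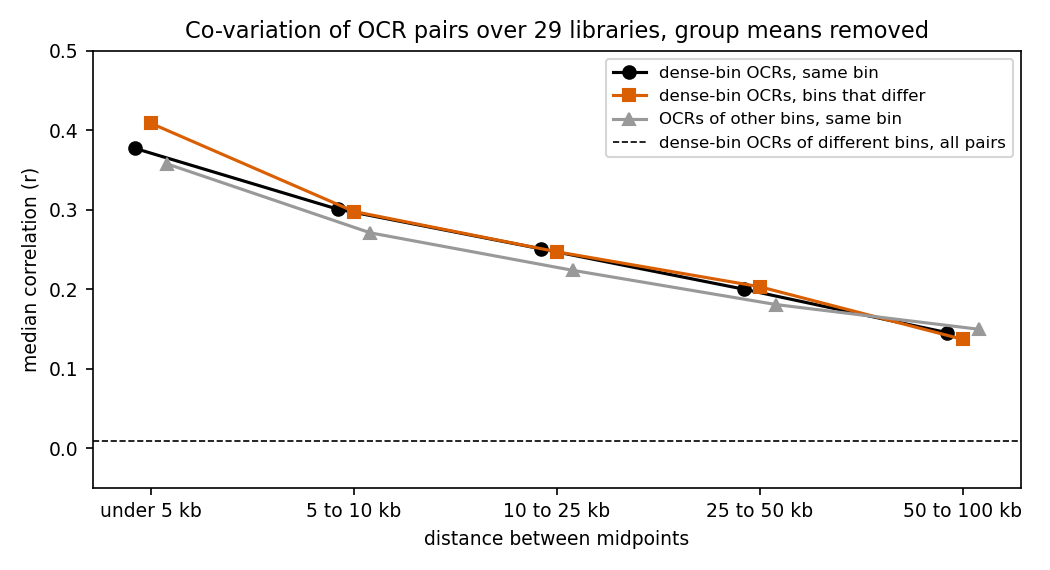
Median Pearson correlation over 29 libraries, group means removed, of pairs of OCRs by the distance between their midpoints; black, members of the same dense bin, orange, members of neighbouring dense bins, grey, OCRs of the same sparser bin, dashed line, all pairs of members in different bins. The 3 curves fall from 0.36 to 0.41 under 5 kb to 0.14 to 0.15 at 50 to 100 kb, above the dashed line at 0.0095.

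Correlation also depended on level. Pairs in the same bin that were both in the highest quartile of level had a median r of 0.45, against 0.19 for such pairs in different bins. For the lowest quartile the medians were 0.32 and 0.13. A pair of 1 OCR from the lowest and 1 from the highest quartile had a median of 0.060 within a bin. With the first component removed, the same-bin medians were 0.24 for the highest quartile, 0.11 for the lowest and 0.075 for the mixed pairs, and those in different bins 0.085 and 0.022 for the highest and lowest. The gap between the lowest quartile and the mixed pairs was then small.

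The bins differed widely in this respect. The median r of a bin was 0.16 at the middle of the 1570 bins and ran from -0.31 to 0.83, with 155 bins over 0.5 and 166 under 0. The highest was chr1:55700001-55800000, with 25 OCRs covering 20.6% of it. Its summed CPM was 847, 523 and 388 in SVZ saline libraries, 1129 and 1040 in SVZ METH libraries, and 208 to 660 in the rest, of which DG saline replicate 3 was the highest. The lowest was chr10:109100001-109200000, with 18 OCRs and a median r of -0.31, at 249 to 547 CPM. With the first component removed its median r was 0.077, so the sign turned, while that of the highest bin remained 0.83. Its lowest and highest libraries were both DG METH libraries, replicates 3 and 1.

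Fold changes were shared within bins to a limited degree. The part of the variance of members' log2 fold changes that lay between bins (the intraclass correlation) was 0.18 for SVZ, 0.17 for CA and 0.11 for both NAc and DG among the region differences. For METH minus saline it was 0.22 in DG, 0.21 in both CA and SVZ and 0.08 in NAc. In bins of 8 to 11 OCRs these METH values were 0.21 in DG, 0.18 in CA, 0.17 in SVZ and 0.08 in NAc.

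METH minus saline was tested in each region in a fit over all 29 libraries, and an OCR was called a differentially accessible region (DAR) at over 1.5-fold and FDR under 0.001. With edgeR, 0 members were DARs in any region (0% of all OCRs in each), and the lowest FDR of any OCR in any region was 0.49, in DG. At an unadjusted p under 0.05 there were 2680 members in DG (11.6%, against 9.84% of all OCRs), 983 in SVZ (4.25%, against 3.47%), 484 in NAc (2.09%, against 2.45%) and 251 in CA (1.08%, against 0.82%). More were lower than higher: 1800 against 880 in DG, 732 against 251 in SVZ, 315 against 169 in NAc, and 207 against 44 in CA. Among all OCRs 6.28% were lower and 3.57% higher in DG, 2.2% and 1.27% in SVZ, 1.42% and 1.03% in NAc, and 0.467% and 0.353% in CA.

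Whether members were called DARs depended on the model. With 5 factors of unwanted variation estimated from residuals (RUVr), 1235 members were DARs in DG (5.33%, against 4.69% of all OCRs), 586 higher and 649 lower. The same model called 24 members in SVZ (0.104%, against 0.0713%), 2 in NAc (0.0204% of all) and 0 in CA. DESeq2 called 2 members in SVZ among the 6398 members it gave an adjusted p, and 8 (0.0363%) of the 22053 OCRs with one. It called 0 OCRs in the other regions, and in DG it gave an adjusted p to 1699 members and 6817 OCRs only.

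The members' METH change was compared with that of all OCRs by its median. The median log2 fold change of members was -0.10 in SVZ, -0.031 in CA, -0.12 in DG and -0.024 in NAc, and that of all OCRs was -0.0050, 0.023, -0.15 and -0.0050. The members' median minus that of all OCRs was -0.095 in SVZ and -0.054 in CA. Over the alternative settings and with each library left out, the relative median stayed between -0.12 and -0.061 in SVZ and between -0.089 and -0.034 in CA. In NAc it ran from -0.028 to 0.00026. In DG it was 0.023, 0.12 without DG METH replicate 3, -0.020 without replicate 1, and -0.058 without replicates 1 and 4, so its sign turned with single libraries.

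The SVZ pattern can be seen in single libraries. The ratio of the median CPM per kb of members to that of the other OCRs was 1.42, 1.47 and 1.498 in the SVZ saline libraries and 1.33 and 1.28 in the SVZ METH libraries, which did not overlap. The share of counts in the top decile of all OCRs moved too, with a METH minus saline difference of -3.46 percentage points in SVZ. Its part in the result was not tested. The same difference was 4.80 points in DG, 1.58 points in NAc and -0.606 points in CA.

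As bin sums, 0 dense bins were called after METH in any region with edgeR or DESeq2 (0% of all bins). At an unadjusted p under 0.05 there were 183 dense bins in DG (11.7%, against 9.05% of all bins), 105 in SVZ (6.69%, against 4.41%), 8 in NAc (0.510%, against 1.41%) and 3 in CA (0.191%, against 0.298%). Of these 98 were lower and 85 higher in DG (4.69% and 4.37% of all bins), and 80 lower and 25 higher in SVZ (2.75% and 1.65%). In NAc 6 were lower and 2 higher (0.815% and 0.591%), and in CA 3 were lower and 0 higher (0.104% and 0.194%). In SVZ 78.2% of dense bins had a negative log2 fold change, against 47.3% of all bins, with a median of -0.14 against 0.021. In DG 38.0% were negative, against 53.6%, with a median of 0.09 against -0.04. In CA 62.4% were negative, against 41.4%.

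Named by the smallest p, the METH bins in DG were these. The bin chr6:145000001-145100000 (17 OCRs) was at 143, 112, 110 and 120 CPM in DG saline libraries and 48.3, 90.4, 116 and 53.8 CPM in DG METH libraries, where replicate 3 lay within the saline range and replicates 1 and 4 far below it. All 17 members were negative, and the log2 fold change was -0.66 (SE 0.20; edgeR adjusted p = 0.49). In the opposite direction, chr8:49900001-50000000 (18 OCRs) was at 105, 125, 137 and 113 CPM in DG saline and 174, 146, 128 and 171 CPM in DG METH libraries, with a log2 fold change of 0.37 (SE 0.12; edgeR adjusted p = 0.49). Again replicates 1 and 4 were farthest from saline.

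In SVZ the bin with the smallest p was chr14:83000001-83100000 (17 OCRs). SVZ saline libraries were at 195, 189 and 180 CPM and SVZ METH libraries at 128 and 141 CPM, with 16 of 17 members negative and a log2 fold change of -0.48 (SE 0.12; edgeR adjusted p = 1.00). The other 24 libraries were at 168 to 224 CPM, above both SVZ METH libraries. In the higher direction, chr17:89300001-89400000 (15 OCRs) was at 197, 183 and 123 CPM in SVZ saline and 307 and 293 CPM in SVZ METH libraries, with all 15 members positive and a log2 fold change of 0.84 (SE 0.29; edgeR adjusted p = 1.00). The saline libraries of this bin were themselves spread, replicate 3 being lowest.

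The NAc and CA bins were named in the same way. In NAc, chr4:180300001-180400000 (12 OCRs) was at 49.5, 48.4, 38.9 and 40.3 CPM in saline and 49.4, 69.9, 79.0 and 46.7 CPM in METH libraries, which overlap. The bin chr2:211100001-211200000 (24 OCRs) was at 214, 209, 186 and 195 CPM in saline and 178, 187, 138 and 174 CPM in METH libraries, with a log2 fold change of -0.25 (SE 0.11; edgeR adjusted p = 1.00) and 22 of 24 members negative. NAc METH replicate 3 was the lowest. In CA, chr3:125300001-125400000 (14 OCRs) was at 89.9, 67.5, 79.1 and 80.0 CPM in saline and 92.3, 94.4, 95.1 and 91.0 CPM in METH libraries, without overlap, with a log2 fold change of 0.24 (SE 0.12; edgeR adjusted p = 1.00). The CA bin on the lower side was chr5:167400001-167500000 (15 OCRs), at 97.6, 114, 74.8 and 78.9 CPM in saline and 70.5, 80.3, 76.8 and 64.5 CPM in METH libraries, which overlap.

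Of single members, the smallest unadjusted p for METH was that of chr15:33774508-33775448 (941 bp) in SVZ. SVZ saline libraries were at 23.1, 29.6 and 24.6 CPM and SVZ METH libraries at 8.67 and 13.6 CPM, and the other 24 libraries were at 19.8 to 31.1 CPM. Both SVZ METH libraries were thus below all others. The log2 fold change was -1.21 (SE 0.24; edgeR adjusted p = 1.00). DESeq2 and the RUVr fit called it, with adjusted p of 0.000206 and 0.000636. With 2 METH libraries the estimate rests on the spread shared over the 8 groups. The higher SVZ member, chr1:39088943-39089432 (490 bp), was at 2.53, 1.91 and 0.709 CPM in saline and 6.36 and 7.21 CPM in METH libraries. A peak was called in 9 of 29 libraries at this member and in 28 at the lower.

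In NAc the lower member was chr12:47643964-47644359 (396 bp), at 3.12, 3.87, 3.07 and 3.31 CPM in saline and 1.41, 1.02, 0.739 and 1.24 CPM in METH libraries, with a log2 fold change of -1.59 (SE 0.36; edgeR adjusted p = 1.00). The higher member, chr10:75976715-75977641 (927 bp), was at 3.21, 3.06, 3.48 and 3.01 CPM in saline and 6.65, 5.45, 10.6 and 6.30 CPM in METH libraries, with a log2 fold change of 1.18 (SE 0.31; edgeR adjusted p = 1.00). Neither overlapped between the groups, and neither passed adjustment over the 98237 OCRs. A peak was called in 2 of 29 libraries at the lower member and in 10 at the higher.

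In DG the lower member was chr2:141141804-141142190 (387 bp), at 2.29, 1.28, 2.16 and 4.25 CPM in saline and 0.516, 0.430, 0.985 and 0.953 CPM in METH libraries, without overlap (log2 fold change -1.80, SE 0.42; edgeR adjusted p = 0.49). The higher member, chr8:127638504-127638933 (430 bp), was at 2.48, 2.83, 2.68 and 1.83 CPM in saline and 8.95, 3.61, 1.97 and 11.5 CPM in METH libraries, with replicates 1 and 4 highest. With 5 RUVr factors both DG members were called, at edgeR adjusted p of 0.000639 for the lower and 0.000793 for the higher. In CA, chr10:95606533-95607045 (513 bp) was at 2.84, 1.38, 1.02 and 2.20 CPM in saline and 3.82, 5.99, 4.12 and 3.53 CPM in METH libraries, without overlap. The lower CA member, chr7:12904892-12905069 (178 bp), was at 5.61, 7.22, 2.98 and 2.57 CPM in saline and 2.88, 2.45, 1.91 and 1.91 CPM in METH libraries, which overlap. In the order given, these DG and CA members had a peak in 12, 24, 19 and 1 of 29 libraries.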

How the data were processed

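ATAC-seq libraries of 29 samples (15 saline and 14 METH) were used. The authors ran each region through the AIAP pipeline with default parameters and merged the open regions into consensus OCRs with mergeBed; the submitters' notes name bedtools and the build rn6, with the aligner and its version not given in the sources used here. In the deposited matrix are raw counts of reads per OCR, from which every level and test was computed. The deposited peak lists give a fold enrichment per peak, set by the authors' peak caller, and medians of this ratio were taken. Their -log10 p and q columns were not used. A member had a peak in a library when at least 1 bp overlapped.

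Counts were divided by edgeR upper-quartile effective library sizes to give CPM. Tests used edgeR 4.0.16 in R 4.3.3 (quasi-likelihood, trended dispersion, robust fit) over all 98237 OCRs, or over sums per 100 kb bin, with Benjamini-Hochberg FDR over all features. Region fits used the 15 saline libraries, METH fits all 29. Neither main fit had the RUVr step that the authors applied. Exact permutation tests on shares of counts were two-sided, with p as the smaller tail counted on both sides. Correlations used log2 CPM with a prior count of 2. Alternatives were TMM, DESeq2 1.42.0, a mean count of at least 50, blocks, 5 RUVr factors, other bins and each library left out. Python 3.11.15, numpy 2.4.6 and scipy 1.17.1 were used.

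Groups follow the submitted labels. Peak names tie libraries to 8 animals, so the animal block rests on names, not on correlation: 15 of 39 same-animal pairs deviated together with r over 0.1 (range -0.43 to 0.66). Equal numbers in METH and saline mark different animals (7 of 14 pairs over 0.1, range -0.26 to 0.69). The p-values measure the spread between these libraries. On simulated counts for the DG METH comparison over 98237 OCRs, the test called 2 of 100 OCRs changed 2-fold, 35 of 100 changed 4-fold and 0 of 98037 unchanged. These counts were drawn for each OCR separately, without variation shared over a library. They cannot show how the test behaves with libraries that stand apart, such as DG METH replicates 1 and 4. Depth was 7550223 to 19439840 OCR counts per library, which sets the counting error of low OCRs.

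Members, bins and tests were chosen with earlier results of these data known. Named bins are the 3 with most OCRs, those with the smallest p (or, where called, the largest change) per region and for METH in each direction, and those with the highest and lowest median correlation. Named OCRs follow the same rule, with the widest and the highest per kb.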

Additional observations from a re-analysis of the deposited data

Results flagged for a closer look

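The 114 sets of libraries examined were those of named bins and OCRs and of whole-library values such as the count share. Only groups of 4 libraries were examined, so no SVZ library could be marked. Chance marks about 1 in 20 sets. Below that rate, 2 sets held a library far from its group. Both were NAc saline replicate 3. In the SVZ bin chr8:41100001-41200000 it had 36.7 summed CPM, while the other NAc saline libraries had 59.7 to 62.5. At the CA-specific OCR chr3:150076058-150076405 it had 2.52 CPM, against 0.694 to 0.877 in the others.

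The OCR chr12:47643964-47644359 had METH minus saline differences of opposite sign in a pair of regions. Its log2 fold change was -1.59 in NAc, where all METH libraries lay below all saline libraries, and 0.53 in SVZ, where both METH libraries lay above the 3 saline libraries. In CA it was -0.80 and in DG 0.038. The unadjusted edgeR p in SVZ was 0.24, on 3 saline and 2 METH libraries. This OCR was named for its small p in NAc, and its level was low, with a mean of 2.31 CPM and a peak in 2 of 29 libraries. The difference between the regions was not tested.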

How the results depend on the processing

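Main limits are the few libraries per group and, at low OCRs, the counts behind each value. Of the shares of members that were region-specific (NAc 2.36%, SVZ 0.104%, CA 0.0216% and DG 0.00864%), the following moved by over 1.5 times; the cause was not tested. With TMM they were 0% in DG, 0% in CA and 0.0216% in SVZ, with DESeq2 0.324, 0.756 and 0.557%, where the shares of all OCRs were 0.00305, 0.00407 and 0.0855% with TMM and 1.31, 1.35 and 1.53% with DESeq2. At a mean count of at least 50 they were 1.22% in NAc, 0.0542% in SVZ, 0.00677% in CA and 0% in DG, from METH libraries 1.13, 1.78, 0.903 and 0% (of all OCRs 1.78, 0.172, 0.0244 and 0.0412%, and 2.18, 1.05, 1.19 and 0%). With the batch inferred from the peak names as a covariate, they were 3.68% in NAc, 0.151% in DG and 0.121% in CA. The shares of all OCRs were 6.19, 0.528 and 0.215%, and this alternative was chosen after seeing the data. Other bins moved DG to 0.0342% (bins shifted by 50 kb), 0.0379% (10 or more OCRs) and 0% (15 or more), and SVZ to 0.0601% (15 or more).

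The replicate block by animal, which pairs libraries of the same rat, gave 4.04% in NAc, 0.00864% in SVZ, 0.0950% in CA and 0.0389% in DG, and 0.127% of dense bins in NAc. A replicate block by number gave 0.0475% in DG and 0.0864% in CA (0.283 and 0.107% of all OCRs). It also gave 0.0637% of dense bins in NAc (3.53% of all bins) and a median METH log2 fold change of -0.066 in SVZ. Paired by animal, the region differences in count share had exact adjusted p of 0.6 to 1. Equal numbers in METH and saline gave exact p of 0.75, 0.875, 0.125 and 1. The blocks ended the call of the SVZ-specific OCR named and changed no other call reported beside those given.

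Leaving out each library gave 0.661 to 3.24% in NAc, 0 to 0.173% in SVZ, 0 to 0.475% in CA and 0 to 0.445% in DG, and 0 to 0.0637% of dense bins in NAc and in CA. At the highest of these the shares of all OCRs were 5.45, 0.537, 0.963 and 1.29%, and those of all bins 3.74% in NAc and 0.402% in CA. At the lowest NAc share it was 1.72% of all OCRs. Median METH log2 fold changes ran from -0.060 to 0.016 in NAc and -0.13 to -0.078 in SVZ. The METH difference in count share ran from -0.207 to 0.506 points in DG, and NAc minus DG from -0.247 to 0.258 points. That NAc minus DG difference of 0.0346 also turned with bins shifted by 50 kb (-0.000103) and with 15 or more OCRs (-0.0524).

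Dense bins were region-specific in 0.0637% with DESeq2 in NAc and in CA (4.05 and 0.909% of all bins). They were 0.0637% with the batch covariate in NAc (3.81% of all bins) and 2.42% in SVZ from METH libraries (1.11%). DARs were 0.00864% of members in NAc, 5.33% in DG and 0.104% in SVZ with 5 RUVr factors, and 0.0313% in SVZ with DESeq2. Median METH log2 fold changes were 0.024 in DG, -0.11 in CA and -0.14 in SVZ with DESeq2, and -0.010 in DG at a mean count of at least 50. DESeq2 moved the median of all OCRs in DG from -0.15 to -0.0059. The median level was 8.73 CPM per kb with 10 or more OCRs and 9.95 with 15 or more. Removing the first residual component, also chosen after seeing the data, lowered the same-bin correlation to 0.12. Medians that moved by less than 1 SD between libraries but by over 1.5 times were, in DG, -0.066 with TMM and -0.058 without DG METH replicates 1 and 4. In CA they were -0.0041 with the number block, -0.0026 with RUVr factors, -0.012 with the batch covariate, -0.047 with TMM and -0.050 with 15 or more OCRs. The NAc median turned to 0.0013 with TMM and was -0.0079 with DESeq2, -3.72e-05 at a mean count of at least 50, -0.012 with the batch covariate and -0.038 with RUVr factors. Leaving out single libraries, the medians ran from -0.19 to -0.051 in DG and from -0.047 to -0.018 in CA. These included, 418 values kept their side of the threshold, moved by less than the spread between libraries (5% for widths) or, as shares of calls, stayed within 1.5 times.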
